A study of Brassica oleracea with 107 samples.

Results

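The genes described here are the 150 whose transcripts were reduced most in the embryo of Brassica oleracea, which includes cabbage and broccoli, as the seed matured at 16 °C. They were chosen by measured values, as the 150 genes of the embryo table with the most negative difference in log2(TPM + 1) between day 22 and day 0 at 16 °C, out of 13120 genes listed for the embryo and 19732 listed for either tissue. TPM, transcripts per 1000000, is a length-corrected share of the RNA of a library. All plants were grown at 21 °C until bolting and then at 16 °C until the embryo had reached the bent-cotyledon stage. The groups compared were then a recovery treatment, moved from 26 °C to 16 °C and sampled on days 18 and 22; seeds kept at 26 °C, sampled on days 1, 3, 7, 15, 18 and 22; and seeds kept at 16 °C, sampled on day 0 and on those same days. The labels name neither the cultivar, nor the day of the move, nor the event from which days are counted. Embryo was dissected from endosperm, and the endosperm fraction also held the seed coat. Endosperm has the same groups and a further series at hours 1, 24 and 72 at 26 °C and at 16 °C, in a study whose title names both seed development and germination.

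As background, an embryo at the bent-cotyledon stage has its organs laid out. Maturation then follows, in which cell division stops, storage protein and oil are deposited, chlorophyll is lost in the oilseed brassicas, and the embryo becomes able to survive drying. Many transcripts of growth are known to be lost on the way, and those of storage and of protection against drying to accumulate.

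Values are 1 per group, combined by the authors from 2 or 3 libraries, so no difference has a replicate check and no p-value is given. A gene is counted as higher or lower when its log2(TPM + 1) differs by 1 or more between 2 columns, which is 2-fold. Each count is set beside the same share among all genes at 1 TPM or more in the set of columns. For embryo it is also set beside the 2284 genes at 27.6 TPM or more on day 0 at 16 °C, the level of the lowest of the 150 genes, since a gene with few transcripts can hardly be counted as lower on this scale. None of the 19732 identifiers matched the reference gene table, so the genes are given by identifier with no name, role or sequence, and neither tissue could be checked against its marker genes. Whether a lower value comes from fewer cells of a type or from less RNA per cell cannot be told apart in whole dissected tissue. On day 18 of endosperm, the column labelled recovery differed 2-fold from 16 °C in 44.9% of 14601 genes and the column labelled 26 °C in 23.6%, whereas on day 22 the shares were 38.6% and 45.3%. Both columns are therefore given under their labels wherever day 18 of endosperm is used.

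The 150 genes were abundant at the start. On day 22 at 16 °C they were at a median of 0.94 TPM, with 77 of them under 1 TPM and a highest value of 67.2 TPM, against a median of 113 TPM and a range of 27.6 to 2964 TPM on day 0. Together they made up 0.061% of all TPM on day 22, against 3.84% on day 0. The difference ranged from -8.48 to -4.84 log2 units. The last genes inside the threshold were Bo4g154410, at 12.96 TPM on day 22 against 399 TPM on day 0 (a difference of -4.84), and Bo3g052280, listed at 0 on day 22 against 27.6 TPM on day 0. The first genes outside it were Bo3g036150, at 0.64 and 45.2 TPM, and Bo8g062550, at 1.72 and 75.9 TPM, both with a difference of -4.82. The median difference of all embryo genes was -0.90. These 2 columns chose the genes, and nothing is read from them.

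The decline at 16 °C, given as a description, was gradual and lay mostly after day 1. Relative to day 0, the median of the 150 genes was -0.08, -0.76, -1.79, -3.61, -4.73 and -5.43 log2 units on days 1, 3, 7, 15, 18 and 22, while the median of all genes was -0.01, -0.27, -0.60, -0.73, -0.88 and -0.90. Per day, the median step in log2 units was -0.32 over days 1 to 3, -0.26 over days 3 to 7, -0.23 over days 7 to 15, -0.31 over days 15 to 18 and -0.20 over days 18 to 22. On this scale the rate therefore differed by less than 2-fold between these intervals, and the change between days 0 and 1 was -0.08. The added 1 makes steps near 0 smaller. On day 18, 46 of the genes were under 1 TPM at 16 °C, and on day 22, 77 were. The median was 8.06, 3.18 and 0.94 TPM on days 15, 18 and 22, so the late rates are understated on this scale.

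Between neighbouring sampling days at 16 °C, no gene of the 150 was 2-fold higher at any step. On day 1 none was 2-fold lower than on day 0, against 0.420% of all genes. On day 3, 48 of the 150 were lower than on day 1, against 2.12% of all genes. On day 7, 84 were lower than on day 3 (2.67% of all genes), and on day 15, 148 were lower than on day 7 (7.32%). On day 18, 63 were lower than on day 15 (2.55%), and on day 22, 68 were lower than on day 18 (2.73%). The 7 to 15 day step, which spans 8 days, was the largest single step of 109 genes. For 32 genes the largest was the step of days 18 to 22, for 8 that of days 15 to 18, and for 1 that of days 3 to 7.

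**Figure D1:**
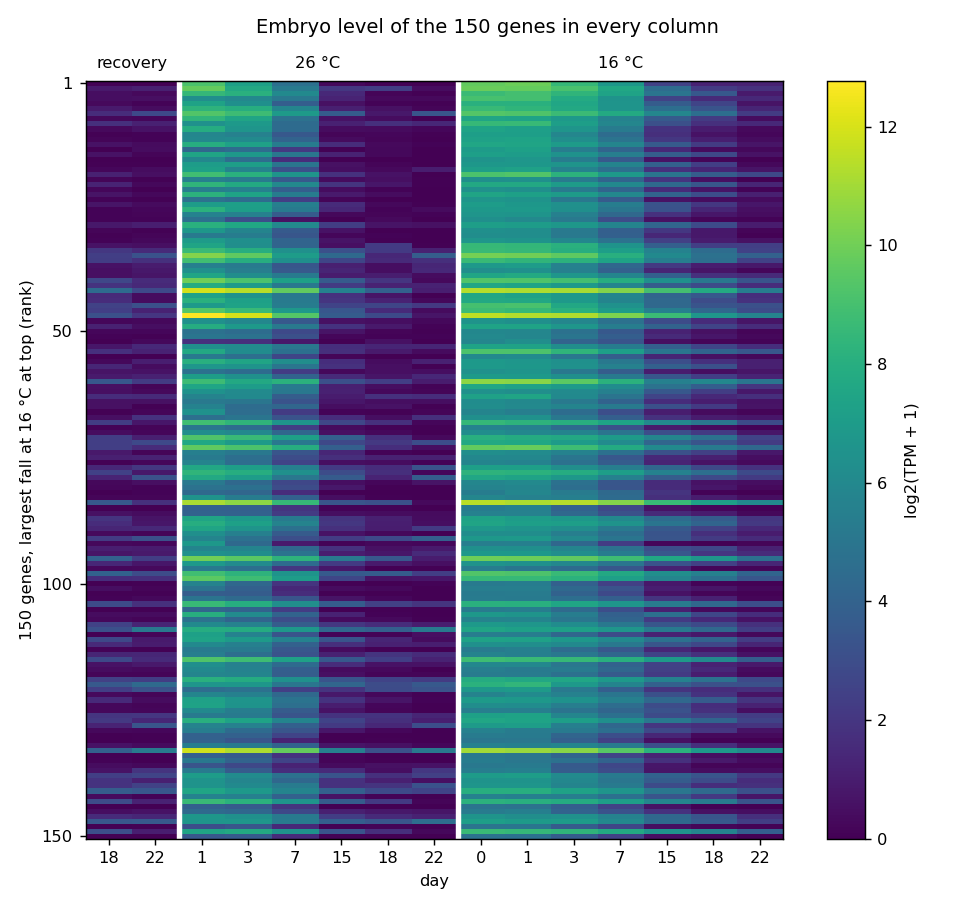
Level of each of the 150 genes, as log2(TPM + 1), in every embryo column: recovery on days 18 and 22, 26 °C on days 1 to 22 and 16 °C on days 0 to 22. Genes run down the page from rank 1 to rank 150 by the size of the difference at 16 °C, and the day 15 column is darker at 26 °C, where the median was 1.30 TPM, than at 16 °C, where it was 8.06 TPM.

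Single genes followed this course at different levels. Bo3g175350, the gene with the largest difference, was at 845, 972, 361, 107, 4.70, 1.34 and 1.36 TPM on days 0, 1, 3, 7, 15, 18 and 22 at 16 °C. It was therefore low by day 15 and no lower after day 18. Bo2g149980, second by rank, was at 932, 863, 551, 197, 21.8, 3.70 and 2.59 TPM on the same days. The 2 most abundant genes of the set kept high levels longer. Bo3g146480 was at 2964, 2484, 2464, 1237, 410, 103 and 50.9 TPM, and Bo7g044900 at 2764, 2376, 2569, 1332, 395, 154 and 67.2 TPM.

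The earliest and the latest genes of the set differed in when the loss came. Bo7g045580 and Bo9g010460 had gone through 60.4% and 58.9% of their log2 difference by day 7, the largest shares among the 150. Bo7g045580 was at 42.8, 45.0, 18, 3.84 and 0.15 TPM on days 0, 1, 3, 7 and 15, and by day 18 was listed at 0, with 0.14 TPM again on day 22. In Bo2g110390 and Bo4g154410, 44.2% and 40.8% of the log2 difference came after day 18. Bo2g110390 was at 449, 410, 371, 268, 124, 62.5 and 12.5 TPM across the 16 °C days.

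**Figure D2:**
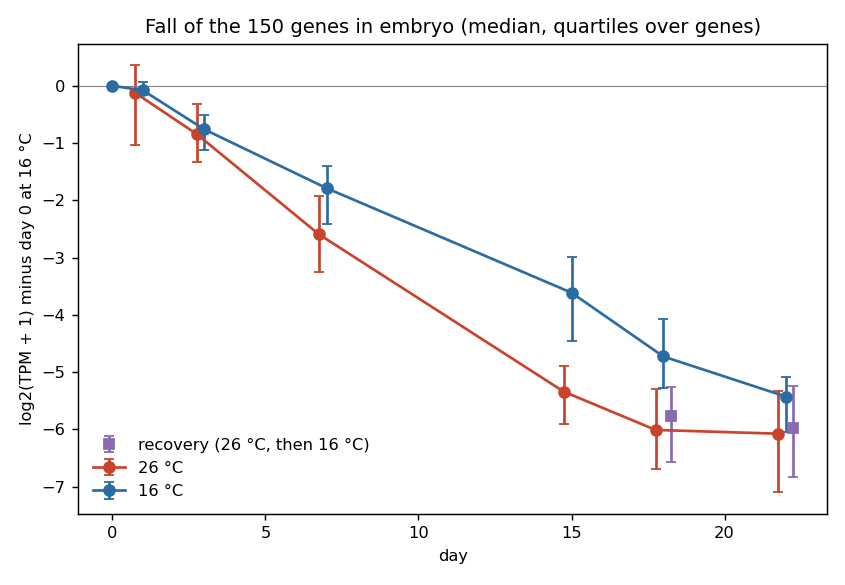
Median over the 150 genes of log2(TPM + 1) relative to day 0 at 16 °C, with bars for the quartiles over genes, by day, for recovery, 26 °C and 16 °C (points are shifted slightly sideways). The 26 °C median is at -5.34 on day 15, close to the 16 °C median of -5.43 on day 22.

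At 26 °C the same genes reached low levels sooner. Relative to day 0 at 16 °C, since day 0 was not sampled at 26 °C, the median was -0.12, -0.84, -2.60, -5.34, -6.01 and -6.08 log2 units on days 1, 3, 7, 15, 18 and 22. The median level on these days was 94.1, 67.4, 18.1, 1.30, 0.45 and 0.18 TPM at 26 °C, against 107, 64.1, 32.4, 8.06, 3.18 and 0.94 TPM at 16 °C. The medians thus lay close on days 1 and 3, when single genes differed both ways, and apart from day 7 on. The set made up 0.058% of all TPM at 26 °C on day 15, against 0.40% at 16 °C.

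A gene was also dated by the first sampled day from which it stayed under 50% of its day 0 value. At 16 °C the mark uses both columns that chose the genes. At 26 °C it uses the day 0 column of 16 °C, which had a part in choosing them. The counts at both temperatures are therefore a description, and nothing is read from their distance to all genes. At 26 °C this held for 38 genes from day 1 (4.31% of all genes), for 68 from day 3 (8.56%) and for 147 from day 7 (29.1%). At 16 °C it held for none from day 1 (0.261% of all genes), for 51 from day 3 (5.50%) and for 139 from day 7 (30.7%). The day came earlier at 26 °C for 65 genes, on the same sampling day for 78 and later for 7. The order of dates was not counted for other genes, so whether it is particular to the set was not tested. Among all genes the share was also higher at 26 °C than at 16 °C from day 1 and from day 3, but not from day 7. Both dates use the same day 0 column.

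The comparison of temperatures on days 1 to 18 uses no column that chose the genes. On day 1, 36 of the 150 (24.0%) were lower at 26 °C and 10 higher. Among all genes 3.93% were lower and 9.26% higher, and among genes at 27.6 TPM or more on day 0, 8.45% and 8.19%. On day 3, 12 genes (8.0%) were lower and 4 higher, against 0.790% and 5.43% of all genes and 1.58% and 4.95% of the abundant ones. On day 7, 49 (32.7%) were lower and 1 higher, against 2.13% and 8.60% of all genes and 5.47% and 6.13% of the abundant ones. The share of lower genes was thus above both backgrounds on each of these days.

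On day 15 the set stood furthest from 16 °C. There were 115 genes (76.7%) lower at 26 °C and none higher, against 14.4% and 10.4% of all genes and 33.0% and 7.09% of the abundant ones. The median log2 difference was -1.69, against -0.18 for all genes, and 145 of the 150 had a lower value at 26 °C. On day 18, 81 genes (54.0%) were lower and 1 higher, against 18.8% and 14.1% of all genes and 44.2% and 8.71% of the abundant ones, so the lower share was closer to that of other abundant genes. By then 96 of the 150 were under 1 TPM at 26 °C and 46 at 16 °C. Of the 150, 79 were lower on both days 15 and 18, against 8.85% of all genes. The share lower on both days was not counted for the abundant genes, so the part of level in this distance was not tested.

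Day 22 at 16 °C is a column that chose the genes, so its comparison is a description. On that day 42 genes (28.0%) were lower at 26 °C and 11 higher, against 15% and 26.0% of all genes and 36.1% and 18.9% of the abundant ones. At 26 °C 107 genes were under 1 TPM and 21 of them listed at 0, against 77 and 3 at 16 °C.

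**Figure D3:**
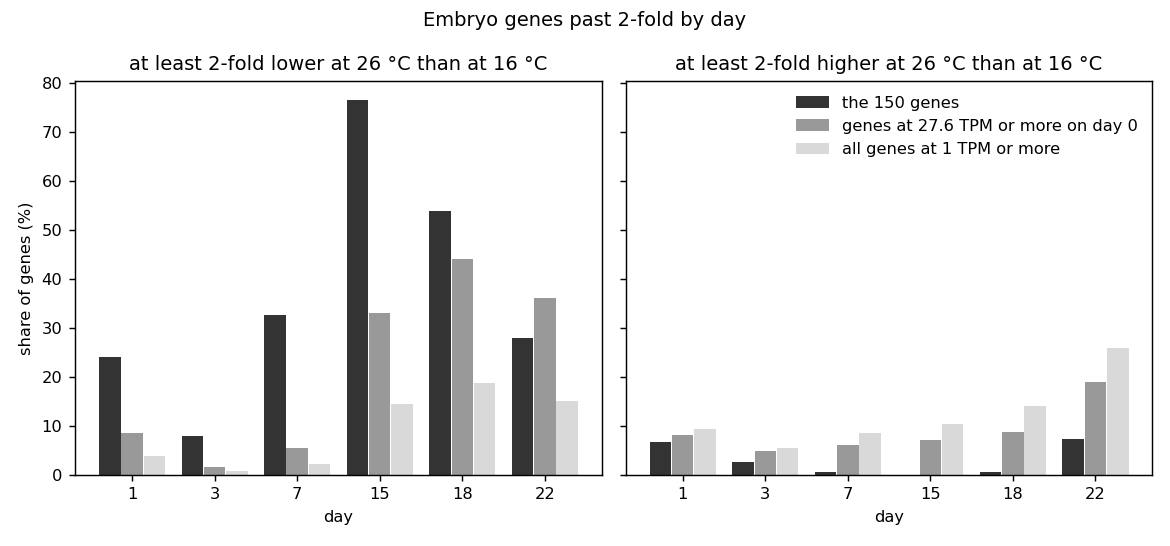
Share of genes (%) at least 2-fold lower (left) and higher (right) at 26 °C than at 16 °C in embryo by day, for the 150 genes, for the genes at 27.6 TPM or more on day 0 and for all genes at 1 TPM or more. The lower share of the 150 genes is highest on day 15, at 76.7%. On day 22 it is under that of the abundant genes on this scale, though not at a pseudocount of 0.1.

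The genes just outside the threshold, at ranks 151 to 300, give a comparison. Of these 150 genes, 17 (11.3%) were lower on day 7, 88 (58.7%) on day 15 and 71 (47.3%) on day 18. Their median log2 difference on day 15 was -1.20. They were less abundant, with a median of 43.9 TPM on day 0, and the difference between the groups of genes was not tested.

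On day 1 the genes lay on both sides of their 16 °C values, with 104 of the 150 within 2-fold. The gene furthest below 16 °C was Bo3g028030, at 2.39 TPM at 26 °C against 77.1 TPM at 16 °C on day 1. On day 3 it was at 2.30 against 15.9 TPM. By day 15 it was listed at 0 at 26 °C against 0.37 TPM at 16 °C. Bo1g108740 was at 18.1 TPM at 26 °C against 149.9 TPM at 16 °C on day 1. On day 3 it was at 21.7 against 42.1 TPM. On day 1 at 26 °C both genes were thus already below their 16 °C level of day 3.

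Of the 36 genes lower on day 1, 8, 20, 20 and 4 were lower on days 3, 7, 15 and 18. Their median log2 difference was -1.56, -0.39, -1.16 and -1.04 on days 1, 3, 7 and 15, of which the day 1 value chose the group. The temperature difference in this group was therefore smaller on day 3 than on day 7. Of the 104 genes within 2-fold on day 1, 4, 28, 86 and 69 were lower on days 3, 7, 15 and 18. On day 18 the 16 °C median was 0.66 TPM for the 36 genes and 4.21 TPM for the 104. A gene under 1 TPM at 16 °C cannot be counted as lower on this scale, so the late counts of these groups are not compared.

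The 10 genes counted as higher on day 1 at 26 °C were 6.67% of the set, against 9.26% of all genes and 8.19% of the abundant ones. Of these 10, 3 were higher on day 3, 1 on day 7, and 9 were lower on day 15 and 8 on day 18. Among all 150 genes, 115 were lower on day 15 and 81 on day 18. The median of the 10 was 275 TPM at 26 °C against 111 TPM at 16 °C on day 1, with 1.91 against 12.7 TPM on day 15. Bo3g146480, the most abundant gene of the set on day 0, was among the 10. It was at 7003, 3966, 665, 12.0, 6.29 and 0.65 TPM on days 1, 3, 7, 15, 18 and 22 at 26 °C, and at 2484, 2464, 1237, 410, 103 and 50.9 TPM on those days at 16 °C. The values crossed between days 3 and 7.

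Bo5g087050 had the largest excess on days 1 and 3. It was at 154 TPM at 26 °C against 41.6 TPM at 16 °C on day 1, at 50.5 against 18.4 TPM on day 3, and by day 15 at 0.093 against 1.36 TPM. On day 3 the next was Bo9g062660, at 93.5 TPM at 26 °C against 42.8 TPM at 16 °C. Its log2 difference was 1.11, and 0.99 after median centring, which subtracts the shift of all genes. Bo5g126310 was the single gene higher on day 7, at 74.6 TPM at 26 °C against 33.4 TPM at 16 °C, and was at 2.21 and 7.35 TPM on day 15.

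On day 7 the largest deficits at 26 °C were those of Bo1g136070, at 13.2 TPM at 26 °C against 96.7 TPM at 16 °C, and Bo7g077010, at 2.05 and 19.7 TPM. On day 3, Bo2g135930 was at 73.4 TPM at 26 °C against 322 TPM at 16 °C. In later embryos the abundant Bo7g044900 led. It was at 2269, 1549, 372, 9.48, 7.72 and 0.24 TPM on days 1, 3, 7, 15, 18 and 22 at 26 °C, against 2376, 2569, 1332, 395, 154 and 67.2 TPM at 16 °C. Bo4g154410 was at 2.26 TPM at 26 °C against 53.9 TPM at 16 °C on day 18.

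The genes were also grouped by their largest 16 °C step, as a description. All 32 genes with that step between days 18 and 22 were lower at 26 °C on day 15 and 31 on day 18. Their median was 5.18 TPM at 26 °C against 32.1 TPM at 16 °C on day 15, with 1.69 against 16.5 TPM on day 18. Of the 109 genes with their largest step between days 7 and 15, 74 were lower at 26 °C on day 15 and 43 on day 18, where their medians were 0.34 TPM at 26 °C against 1.74 TPM at 16 °C. The grouping itself uses the 16 °C columns, and a large step after day 18 needs a high 16 °C value on day 18. A gene with a higher 16 °C value is more readily counted as lower at 26 °C. The contrast between these groups is thus partly fixed by the grouping, and nothing is read from it.

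**Figure D4:**
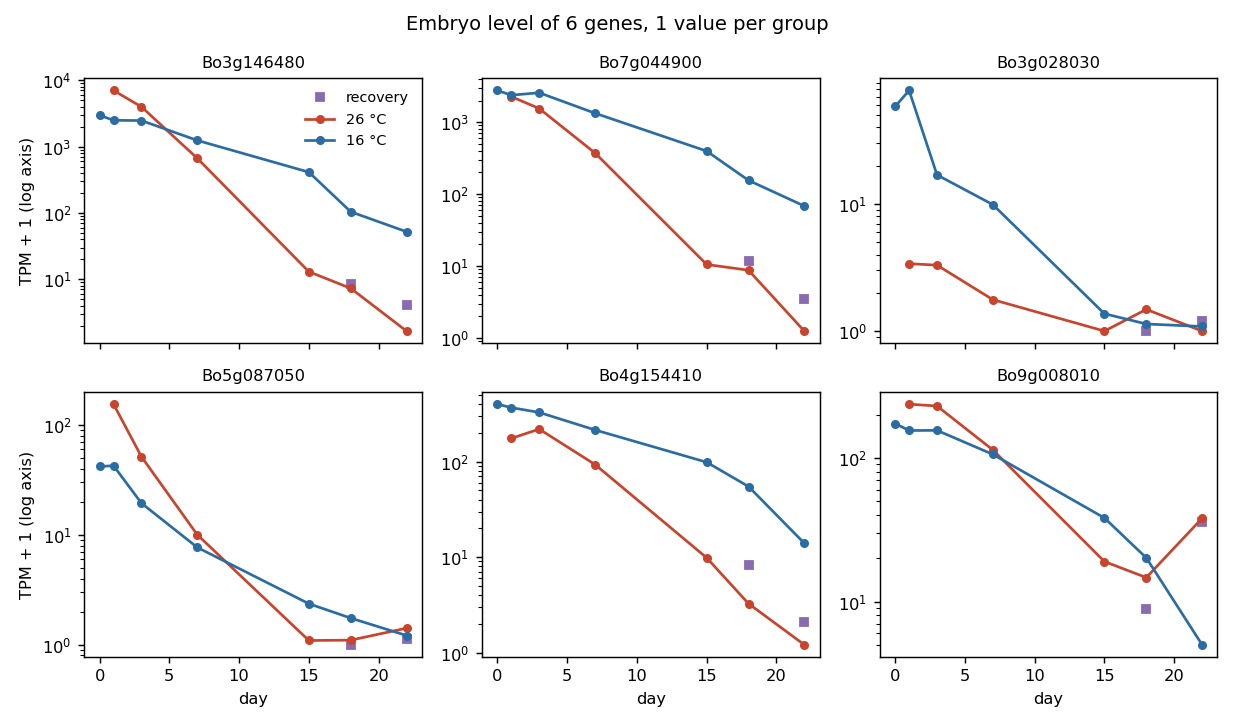
Embryo level (TPM + 1, log axis) by day of Bo3g146480, Bo7g044900, Bo3g028030, Bo5g087050, Bo4g154410 and Bo9g008010 in recovery, at 26 °C and at 16 °C, with 1 value per group. Bo3g146480 and Bo5g087050 are higher at 26 °C on day 1 and lower on day 15, and Bo9g008010 is higher at 26 °C on day 22, at 37.0 against 4.01 TPM.

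Single genes of the set were higher again late at 26 °C. How many genes did so, in the set or outside it, was not counted. On day 22, 11 of the 150 (7.33%) were higher at 26 °C than at 16 °C, against 26.0% of all genes and 18.9% of the abundant ones. The 16 °C column of that day had a part in choosing the genes. Bo9g008010 was at 236, 229, 113, 18, 13.7 and 37.0 TPM on days 1, 3, 7, 15, 18 and 22 at 26 °C, against 154, 154, 105, 37.2, 19.2 and 4.01 TPM at 16 °C. Bo01765s010 was at 3.83, 5.99 and 13.7 TPM on days 15, 18 and 22 at 26 °C, against 9.17, 3.74 and 1.97 TPM at 16 °C. Bo9g010460, the single gene 2-fold higher on day 18, was at 6.60 TPM at 26 °C against 2.10 TPM at 16 °C. These 3 genes thus had higher values at 26 °C on day 22 than on day 15, Bo9g010460 with 8.68 TPM on day 22 against 2.74 TPM on day 15.

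Embryos returned to 16 °C had values near those of 26 °C. On day 18, 2 of the 150 genes were lower in recovery than at 26 °C and 3 higher, against 3.66% and 2.16% of all genes and 1.31% and 8.58% of the abundant ones. On day 22, 2 were lower and 9 higher (6.0%), against 1.09% and 2.67% of all genes and 0.613% and 8.80% of the abundant ones. Most of the 150 genes were under 1 TPM at 26 °C on both days, where a 2-fold difference on this scale is hard to reach. The day 18 median was 0.55 TPM in recovery, against 0.45 TPM at 26 °C, and the day 22 median 0.35 against 0.18 TPM. Small differences in one direction were common, with 101 of the 150 genes above their 26 °C value on day 18 and 113 on day 22. This was not counted for other genes. The median log2 difference on days 18 and 22 was 0.08 and 0.13 for the set and 0 and 0.02 for all genes. For the genes at ranks 151 to 300 it was 0.09 on both days, so genes outside the set leaned the same way. The counts of higher genes depended on the scale at these low levels. At a pseudocount of 0.1 they were 23 (15.3%) on day 18 and 46 (30.7%) on day 22, against 14.8% and 15.7% of the abundant genes. After each column was rescaled leaving out its 10 leading genes they were 15 (10.0%) and 16 (10.7%), against 15.8% and 13.3% of the abundant genes. The share of higher genes on day 22 was thus above that of the abundant genes at the smaller pseudocount and below it on the other scales run.

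Against 16 °C, 82 genes (54.7%) were lower in recovery on day 18 and none higher, where 10.3% and 6.87% of all genes and 24.5% and 4.77% of the abundant ones were. On day 22, when the 16 °C column is one that chose the genes, 33 were lower and 8 higher, against 9.17% and 18.4% of all genes and 23.8% and 14.4% of the abundant ones. The 115 genes lower at 26 °C on day 15 were followed as a group on the later days. Their median on day 18 was 0.84 TPM in recovery, with 0.60 TPM at 26 °C but 4.29 TPM at 16 °C. On day 22 it was 0.45 TPM in recovery, with 0.21 TPM at 26 °C but 1.52 TPM at 16 °C.

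The genes with the largest excess in recovery over 26 °C differed in how they stood to 16 °C. On day 22 Bo5g061110 had 6.05 TPM in recovery, with 1.10 TPM at 26 °C but 42.3 TPM at 16 °C. On day 18 Bo4g154410 had 7.30 TPM in recovery, with 2.26 TPM at 26 °C but 53.9 TPM at 16 °C. Bo00864s030 had 5.80 TPM in recovery, with 1.52 TPM at 26 °C but 15.7 TPM at 16 °C, on the same day. Each of these 3 values in recovery lay between those at 26 °C and 16 °C. The genes were chosen for their excess over 26 °C, which fixes the lower side, and nothing about the set is read from them. Bo2g025290 had 7.77 TPM in recovery on day 22, with 3.33 TPM at 26 °C but 7.74 TPM at 16 °C, so that recovery and 16 °C were alike. Bo3g049920 was lower in recovery on day 22, at 3.23 TPM, with 8.72 TPM at 26 °C but 2.5 TPM at 16 °C. Bo9g008010 was at 35.0 TPM in recovery on day 22, close to its 37.0 TPM at 26 °C.

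In endosperm with seed coat, 137 of the 150 genes are listed and 13 are not analysed there. These columns had no part in choosing the genes. The library kit of endosperm on days 7 to 22 was the Ovation one and that of all other samples a standard Illumina one, per the labels, so endosperm values are compared only among the days up to 3, among the later days, and among the hours. On day 0 at 16 °C the listed genes had a median of 117 TPM in embryo and 27.9 TPM in endosperm. Embryo was 2-fold above endosperm for 117 of the 137 (85.4%), against 26.0% of the 9726 genes in both tables, and 2-fold below it for 3. The embryo column of day 0 chose the genes, so this is a description.

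The listed genes were lower late in endosperm too. On day 3 at 16 °C, 6 were lower than on day 0 and 1 higher, against 0.651% and 1.32% of all genes. On day 22, 80 of the 137 (58.4%) were lower than on day 7 and none higher, against 13.9% and 7.57% of all genes. No background of abundant genes was made for endosperm, so the part of level in this distance was not tested. The median was 2.26 TPM on day 22, against 9.26 TPM on day 7. The median log2 difference between these days was -1.15 in endosperm and -3.79 in embryo for the same 137 genes, where day 22 in embryo is a column that chose them. Of the 137, 125 reached 1 TPM in some column of days 7 to 22.

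**Figure D5:**
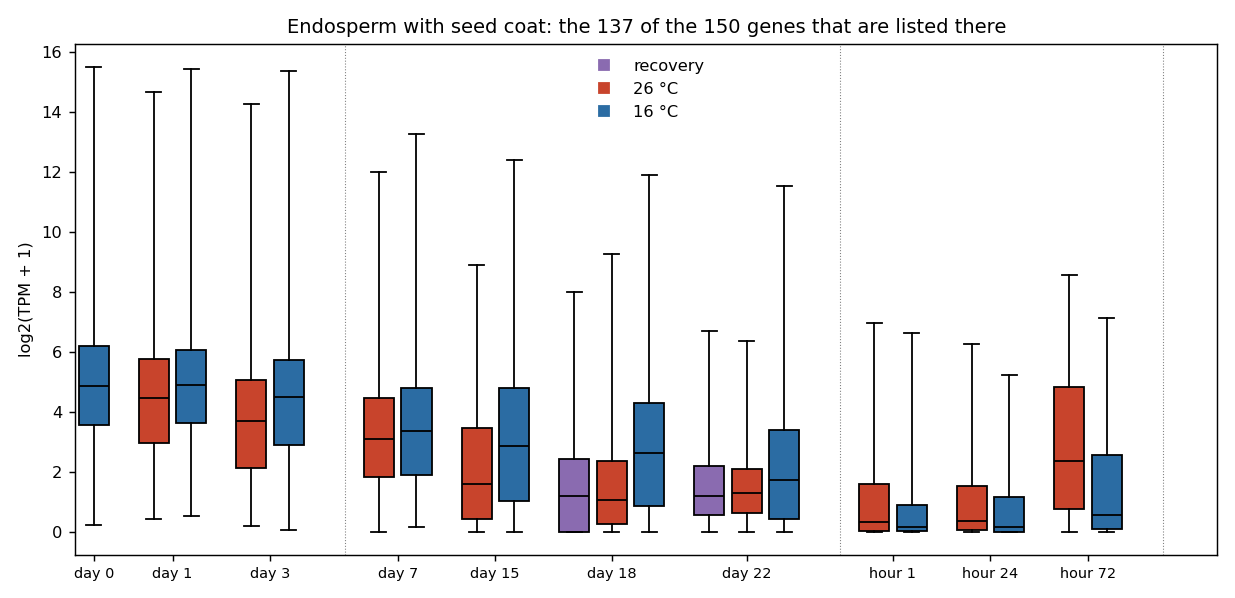
Endosperm level, as log2(TPM + 1), of the 137 listed genes in recovery, at 26 °C and at 16 °C; boxes show the quartiles and the median over genes, whiskers the whole range, and dotted lines part the early days, the later days and the hours. The 26 °C median lies below the 16 °C median on days 3 and 15 and above it at hour 72, at 4.16 against 0.47 TPM, and the boxes overlap at each of these times.

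A pair of genes was far more abundant in endosperm than in embryo. Bo7g073930 was at 46019, 44085 and 29583 TPM on days 0, 1 and 3 in endosperm at 16 °C, and at 9798, 2566, 1694 and 478 TPM on days 7, 15, 18 and 22. In embryo it was at 112, 96.2, 41.8, 14.2, 25.3, 5.50 and 2.24 TPM on these days. Bo4g137010 was at 40184, 42051 and 42063 TPM in endosperm on days 0, 1 and 3, at 7163, 5435, 3792 and 2953 TPM on days 7 to 22, and at 1568 TPM in embryo on day 0. On day 1, Bo7g073930 was at 257 TPM at 26 °C against 96.2 TPM at 16 °C in embryo, and at 25682 against 44085 TPM in endosperm. The part of RNA carried over in dissection in these embryo values was not tested.

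Warm endosperm had lower values of the listed genes from day 1. On day 1, 25 of the 137 (18.2%) were lower at 26 °C and 3 higher, against 2.77% and 7.43% of all genes. On day 3 there were 34 (24.8%) and 2, against 3.70% and 9.79%. On day 7 there were 15 (10.9%) and none, against 3.74% and 11.0%. On day 15 there were 58 (42.3%) and 2, against 8.94% and 12.0%, with medians of 1.98 TPM at 26 °C against 6.26 TPM at 16 °C. The lower share was above that of all genes on each of these days. Genes at a like level were not set apart in endosperm, so the part of level in this distance was not tested.

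On day 18, 72 of the 137 were lower and 4 higher in the column labelled recovery than at 16 °C (17.6% and 27.3% of all genes). In the column labelled 26 °C, 65 were lower and 2 higher (12.1% and 11.5%). Against each other, 15 were lower in the column labelled recovery and 13 higher, where 8.70% and 22.2% of all genes were. These counts moved with the scale, to 39 lower and 27 higher at a pseudocount of 0.1, 31 lower after rescaling and 7 higher after median centring. The median was 1.28 TPM under the recovery label and 1.09 TPM under the 26 °C label, against 5.20 TPM at 16 °C. On day 22 of endosperm, 49 genes were lower and 9 higher at 26 °C than at 16 °C (19.4% and 25.9% of all genes). In recovery on day 22, 2 were lower and 3 higher than at 26 °C (2.20% and 3.43% of all genes), and 49 lower and 10 higher than at 16 °C (17.0% and 21.6%).

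On day 15, 50 listed genes were lower at 26 °C in both tissues. They are 45.9% of the 109 listed genes lower in embryo, while 42.3% of all 137 were lower in endosperm. They are also 86.2% of the 58 lower in endosperm, while 109 of all 137 were lower in embryo. The overlap is thus near what these totals give by themselves, and no agreement of single genes is read from it. Among the 8414 genes measured in both tissues at that time 3.92% were lower in both. The largest deficits in endosperm were those of Bo2g038930, at 14.7 TPM at 26 °C against 391 TPM at 16 °C, and Bo6g034780, at 2.08 and 54.9 TPM. In embryo on the same day Bo2g038930 was at 0.41 TPM at 26 °C against 7.82 TPM at 16 °C. On day 22 of endosperm Bo4g137010 had 63.6 TPM in recovery, with 28.3 TPM at 26 °C but 2953 TPM at 16 °C.

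In the hour series the listed genes were low at first and differed between temperatures at hour 72. Their medians at hours 1, 24 and 72 were 0.24, 0.26 and 4.16 TPM at 26 °C, against 0.12, 0.12 and 0.47 TPM at 16 °C. At hour 1, 1 gene was lower at 26 °C than at 16 °C and 14 (10.2%) higher, against 8.89% and 11.2% of all genes. At hour 24 there were 1 and 18 (13.1%), against 7.12% and 16.8%, and among all 16338 listed genes, with no filter on level, 9.06% were higher at hour 1 and 13.6% at hour 24. The higher shares of the set thus lay near the background at both hours on this scale. At a pseudocount of 0.1 the higher counts were 35 (25.5%) at hour 1 and 46 (33.6%) at hour 24, against 21.7% and 26.9% of all genes.

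At hour 72, 79 of the 137 (57.7%) were higher at 26 °C and none lower, against 22% and 13.1% of all genes. The median log2 difference was 1.19, against 0.15 for all genes. The listed genes made up 0.40% of all TPM at 26 °C and 0.11% at 16 °C at that hour. Between hours at 16 °C, 39 were higher at hour 72 than at hour 1 and 8 lower, against 29.0% and 19.8% of all genes. The 39 are 28.5% of the 137, and with no filter on level 23.4% of all listed genes were higher. At a pseudocount of 0.1 the count was 63 (46.0%), against 39.5% of all genes. Of the 137, 97 reached 1 TPM in some column of the series.

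The largest excess at hour 72 was that of Bo2g043370, at 67.8 TPM at 26 °C against 2.58 TPM at 16 °C. It had been listed at 0 in both hour 1 columns. Bo9g022280 was at 45.5 TPM at 26 °C against 1.99 TPM at 16 °C, and was listed at 0 at hour 1 at both temperatures. Bo6g117880 was at 0.77, 26.9 and 169.5 TPM at hours 1, 24 and 72 at 26 °C, and at 0.021, 8.51 and 139 TPM at 16 °C. In endosperm on days 0 to 22 it was at no more than 1.41 TPM in any 16 °C column, while in embryo it was at 101 TPM on day 0. Of the 34 listed genes lower at 26 °C on day 3, 15 were higher at hour 72, as were 33 of the 58 lower on day 15. Among all 137 listed genes 79 (57.7%) were higher at hour 72. Neither group thus had a share above that of the whole set. Bo7g073930 was listed at 0 in all columns of the hour series.

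The identifiers of the 150 genes carry chromosome numbers in shares near those of the whole table. In this naming the digit before the g is the chromosome number. Chromosome 3 held 26 of the 150 (17.3%) and 15.9% of the 13120 genes of the table, chromosome 4 held 12.7% and 11.02%, and chromosome 9 held 8.67% and 11.3%. For 6 genes the identifier names no chromosome, against 2.47% of the table. In 2 pairs the genes were neighbours by identifier, the numbers differing by 10. Bo2g149980 has the neighbour Bo2g149970, at 0.14 TPM on day 22 against 41.2 TPM on day 0. Bo8g030530 and Bo8g030540 were at 2.05 and 2.52 TPM on day 22, against 167 and 209 TPM on day 0. These pairs were chosen after their values were seen. Whether reads of neighbouring copies were shared in the authors' counting was not stated.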

How the data were processed

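RNA was sequenced by the authors from 107 libraries, 45 of embryo and 62 of endosperm with seed coat, in 36 groups of 2 or 3 libraries, per the labels. Whether libraries of a group are separate plants is not stated. Values are the TPM deposited by the authors, 1 column per group in each of 2 tables; neither how libraries were combined nor how the listed genes were selected is stated. Cutadapt 1.9.1, STAR 2.5 and featureCounts were used, per the submitters' processing notes, which give no order. No genome build, annotation or strand setting is named. TPM keeps no record of depth, so depth is unknown and no counting interval is given.

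Differences are of log2(TPM + 1), with 2-fold as the rule of size, computed with pandas 2.3.3 and tested on simulated data. The background leaves out genes that reach 1 TPM in no column of the set compared. The limma test planned for columns per library could not be run. Named genes are at most 2 higher and 2 lower per comparison, by size of difference past 2-fold where the higher of both columns reaches 5 TPM, and those at the ends of the 16 °C course. Genes in the closing section that fall outside this were chosen after their values were seen, as were the background of abundant genes, ranks 151 to 300 and the background shares under the alternatives. The members and rules were chosen with earlier results of these data known. Matching the 19732 identifiers to a reference table of 53125 genes gave 0 matches, so the planned gene lists and cell type markers could not be looked up. Alternatives were a pseudocount of 0.1, median centring, rescaling without the 10 most abundant genes, and no filter.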

Additional observations from a re-analysis of the deposited data

Results flagged for a closer look

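Opposite temperature differences between groups stand out in these results; none was tested, since each group has 1 value. In endosperm, the median log2 difference between 26 °C and 16 °C over the 137 listed genes was 1.19 at hour 72 and -0.61 on day 3. Both were made with the standard library protocol. At 16 °C the median was 0.47 TPM at hour 72 but 21.3 TPM on day 3, so hour 72 and day 3 are not read as a like stage. On day 15, Bo1g051330 was higher at 26 °C in endosperm by 1.68 log2 units, at 3.85 against 0.51 TPM, and lower in embryo, at 0.61 against 2.82 TPM. On the same day Bo6g010910 was higher in endosperm by 1.20 log2 units, at 1.77 against 0.21 TPM, and lower in embryo, at 0.14 against 2.43 TPM. On day 22, Bo9g022280 was higher in endosperm by 1.00 log2 units, at 1.49 against 0.24 TPM, and lower in embryo, at 0.71 against 9.29 TPM. These endosperm values are all under 5 TPM. No group has 4 or more values, so no search for outlying samples was possible.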

How the results depend on the processing

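No paired analysis was possible because the columns carry no replicate numbers, and for the same reason no replicate could be left out. No difference of a named gene changed sign under the alternatives run. Some shares did change place with those of the background at a pseudocount of 0.1. On day 22 in embryo, 53.3% of the set were then lower at 26 °C than at 16 °C, against 41.8% of the abundant genes. For recovery against 16 °C on day 22 these shares were 42.7% and 29.0%. On the other scales run, the set was under the abundant genes in both comparisons. The cause of the moves here and below was not tested. Of the 150 genes, 78 would be chosen again at a pseudocount of 0.1, which favours genes near 0 on day 22, and 132 after rescaling. With 25% of day 0 as the mark, 64 genes had passed it by day 7 at 16 °C, against 139 with 50%.

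At a pseudocount of 0.1 the embryo counts for 26 °C against 16 °C included 1 higher gene on day 15, 4 higher on day 18 and 80 lower on day 22. For recovery against 26 °C they were 8 lower and 23 higher on day 18, and 7 lower and 46 higher on day 22; against 16 °C, 1 was higher on day 18 and 64 lower on day 22. In endosperm at that pseudocount, 6 genes were higher at 26 °C on day 15 and 1 on day 22 against day 7, which was also 1 after median centring and 1 after rescaling. Median centring left 1 higher gene on day 3 at 26 °C in embryo. Rescaling gave 15 higher on day 18 and 1 lower and 16 higher on day 22 for recovery against 26 °C. The day 15 count of 115 lower genes was 137, 100 and 121 with the pseudocount, centring and rescaling. Without the filter on low values, 17.8% of all genes were higher at 26 °C at hour 72, in place of 22%.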
